A study of Arabidopsis thaliana with 42 samples.

Results

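Plastid-encoded transcripts of Arabidopsis thaliana leaves were taken as the loci whose identifier begins with ATCG, which gave 79 of the 24843 loci counted. Of these, 72 were abundant enough to be tested among 15161 loci. The libraries came from mature leaves of 30-day-old plants of ecotype Col-0, harvested 24 h after infiltration. The inoculum was Pma (Pseudomonas syringae pv. maculicola ES4326), at an OD600 of 0.0002 in 5 mM magnesium sulfate, or, as mock, 5 mM magnesium sulfate alone. The genotypes were cbp60a, chp60g sard1 (as the labels spell it), the triple mutant cbp60a cbp60g sard1, cml46 cml47, wrky70, sid2 and wild type. Each of the 14 groups of 7 genotypes and 2 treatments held 3 libraries, 1 from each of 3 independent experiments, and a library was made from 2 leaves. The study profiled mutants of calmodulin-like and calmodulin-binding protein genes during this infection. The labels name no allele for any mutant, and the mutated genes lie in the nucleus.

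The plastid genome of a leaf cell encodes core subunits of the photosystems, of the cytochrome complex, of the ATP synthase and of the NDH complex, besides ribosomal proteins, a protease subunit and the plastid's own ribosomal and transfer RNAs. It is read by a bacterial-type RNA polymerase, whose sigma factors are nuclear-encoded, and by a phage-type polymerase. Mature plastid messengers mostly end without a poly(A) tail, and tails added in the plastid mark RNA for decay. Smart-3SEQ counts the 3' ends of RNA that was primed at A-rich stretches, so the counts on a plastid locus are tags caught from tails or internal runs of A and not the amount of the mature RNA. In whole leaves, fewer chloroplasts or cells and less plastid RNA per cell cannot be told apart.

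The RefSeq annotation of the plastid genome (TAIR10.1, 154478 bases) carries no ATCG identifiers. Notes on nuclear relatives, followed by a translated sequence match, paired 5 of the loci described here with a RefSeq symbol: ndhJ and ndhK, subunits of the NDH complex that carries electrons around photosystem I; cemA, an inner envelope protein; rpl20, a protein of the large plastid ribosomal subunit; and clpP, the proteolytic subunit of the plastid Clp protease. The others are given by locus, without a name or a role. For these 5 genes, the longest run of A on the sense strand is shown in capitals, with up to 20 bases on each side within the gene, because such runs are what an oligo-dT primer can bind inside an untailed RNA.
ndhJ: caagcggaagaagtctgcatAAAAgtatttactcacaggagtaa
ndhK: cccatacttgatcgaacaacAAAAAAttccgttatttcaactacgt
cemA: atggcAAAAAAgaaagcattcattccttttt
rpl20: tatacaatttcgaatgacatAAAAAAAtaa
clpP: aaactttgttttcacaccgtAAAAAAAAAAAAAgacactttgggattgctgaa
These stretches lie on the plastid chromosome (TAIR10.1) at Pltd:48873-48916 (minus strand) for ndhJ, Pltd:49871-49916 (minus) for ndhK, Pltd:60741-60771 (plus) for cemA, Pltd:68512-68541 (minus) for rpl20 and Pltd:70384-70436 (minus) for clpP. The run lies in an intron of clpP and in the coding exon of the other genes. It is 13 bases long in clpP, a length reached in 5.9% of the 85 annotated plastid protein-coding genes, and 7 bases in rpl20, a length reached in 44.7% of them. In rpl20 the run stands just before the end of the coding sequence, in cemA near its start. The runs of ndhK and cemA have 6 bases and that of ndhJ 4.

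Libraries held 919335 to 2691069 counts (median 1588053.5), of which 32389 to 108295 lay on plastid loci. The nuclear photosynthesis genes used as a check of the tissue took 20.7 to 28.7% of the counts in the 21 mock libraries. Some libraries stood apart in their organelle counts. The 7 Pma libraries of experiment 2 had 961263 to 1378328 counts and a mitochondrion-encoded share of 0.0709 to 0.0812%, against 0.0348 to 0.0531% in the 14 Pma libraries of the other experiments, while their plastid share of 2.97 to 4.96% overlapped the 2.01 to 3.55% of those libraries. In mock leaves of experiment 3, cbp60a, chp60g sard1, the triple mutant and wild type had 919335 to 1241254 counts, a mitochondrion-encoded share of 0.0501 to 0.0661% and a plastid share of 7.01 to 7.17%, while cml46 cml47, wrky70 and sid2 of the same experiment had 1485505 to 2691069 counts, 0.0348 to 0.0358% and 3.54 to 5.46%. Shares, counts of calls, the make-up of the plastid counts and correlations are given with an experiment left out for part of the comparisons. The nuclear lists are not.

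The plastid loci took a smaller share of the library in Pma leaves, 2.01 to 4.96% (median 3.05%, 21 libraries), than in mock leaves, 3.54 to 7.17% (median 5.14%, 21 libraries). Within genotype and experiment the share was lower after Pma in 20 of 21 pairs, and the exception was chp60g sard1 in experiment 2, at 4.96% in Pma leaves and 4.83% in mock leaves. In wild type the share was 2.94, 4.49 and 2.82% in Pma leaves of experiments 1, 2 and 3, against 5.76, 5.18 and 7.06% in mock leaves. The mean log2 ratio of the shares, Pma over mock, was -0.69 ± 0.42 (SD over 21 pairs), a fold of 0.621. A sum over chosen loci is given here as a description, without a test.

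**Figure D1:**
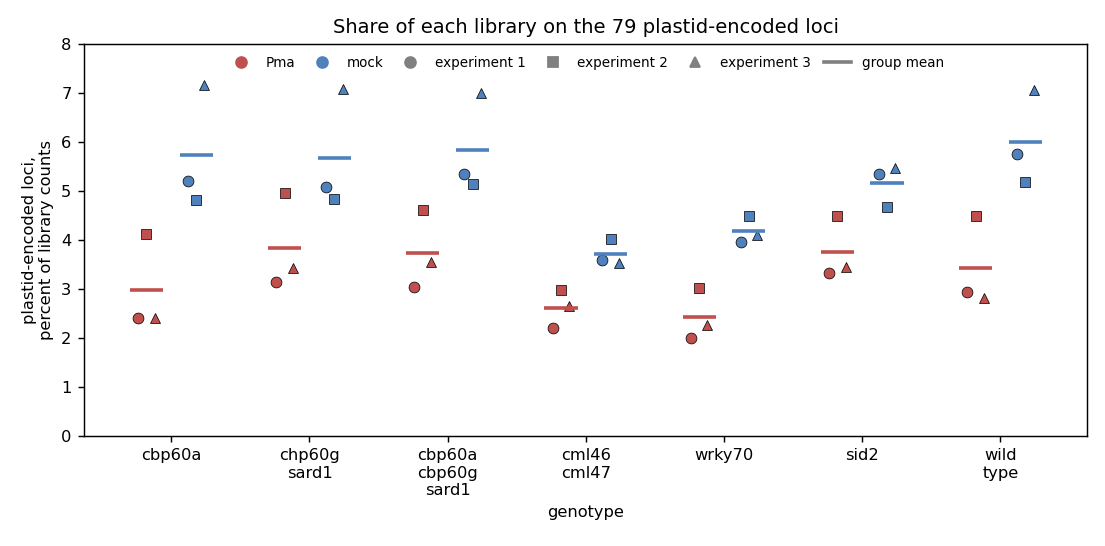
Percent of all counts of a library that lay on the 79 plastid-encoded loci, for 7 genotypes, with Pma left of mock. Points are libraries, marked by experiment, and bars are group means; Pma libraries lie at 2.01 to 4.96% and mock libraries at 3.54 to 7.17%, and in each genotype the highest Pma library is that of experiment 2.

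The ratio depended on the experiment. Over the 7 genotypes the log2 ratio averaged -0.85 ± 0.17 in experiment 1, -0.23 ± 0.21 in experiment 2 and -0.98 ± 0.39 in experiment 3 (SD over genotypes). The mitochondrion-encoded share moved with it in experiment 2, where it was higher after Pma in all 7 genotypes (log2 ratio 0.98 ± 0.16), against 0.05 ± 0.29 in experiment 1 and -0.34 ± 0.49 in experiment 3. The nuclear photosynthesis share did not follow that pattern, with log2 ratios of -2.65 ± 0.66, -3.20 ± 0.67 and -2.62 ± 1.12 in experiments 1, 2 and 3. The part of the library differences in these ratios was not tested.

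**Figure D2:**
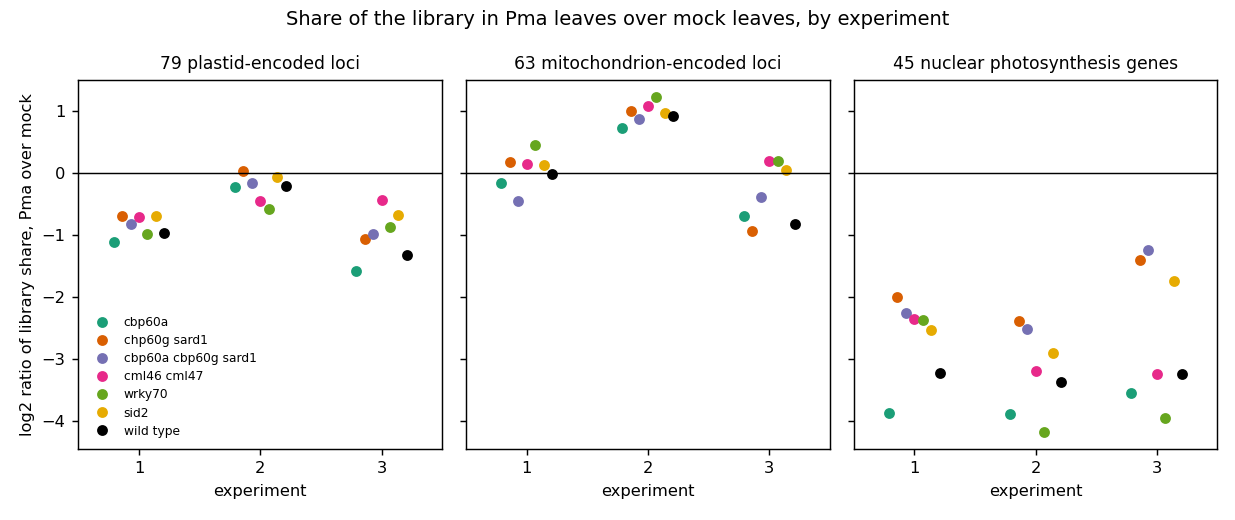
Log2 ratio of the library share, Pma over mock, by experiment, for plastid-encoded loci, mitochondrion-encoded loci and nuclear photosynthesis genes, with 1 point per genotype. In experiment 2 the plastid ratio averages -0.23 and the mitochondrion-encoded ratio 0.98, while the nuclear photosynthesis ratio is -3.20.

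Counts were concentrated on few loci. ATCG00470 held 15.4% of all plastid counts, ATCG00470, ATCG00020 and ATCG00330 together held 37.5%, and the 8 most counted loci held 56.6%. Levels are given as CPM, the count of a locus relative to the library size after scaling by TMM, a trimmed mean over genes. ATCG00470 had 2006 to 8292 CPM in Pma leaves (median 4267) and 5687 to 12040 CPM in mock leaves (median 9526). The others of the 8, in falling order of mean CPM, were ATCG00540, ATCG01020, ATCG00490, ATCG00440 and ATCG00220. Their median levels were 1435, 1564, 926, 674 and 980 CPM in Pma leaves and 2986, 2390, 1743, 1976 and 1463 CPM in mock leaves, in that order. Among the annotated genes, ndhJ took 1.07% of the plastid counts, ndhK 0.882%, clpP 0.623%, rpl20 0.543% and cemA 0.286%. These are shares of tags, which depend on where a locus can be primed, and do not order the genes by their RNA. The shares did not follow the length of the longest run of A, which was 4 bases in ndhJ and 13 in clpP. Whether the tags were primed at these runs was not tested. At the low end, 7 loci were not tested: ATCG00600 had 72 counts over the 42 libraries, and ATCG00830, ATCG00840, ATCG00890, ATCG00900, ATCG01000 and ATCG01240 never had more than 1 count in a library. The plastid genome holds an inverted repeat of 26264 bases (copies at 84171-110434 and 128215-154478), where a read matches both copies; which loci lie in it was not read from the files.

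In the average response of the 7 genotypes, all 72 tested plastid loci had a negative log2 fold change and 69 fell after Pma (edgeR quasi-likelihood test with Benjamini-Hochberg adjustment over all tested loci, as throughout). Of all 15161 loci, 42.6% were lower and 41.3% higher in this comparison, so the members' share of 95.8% stood well above the background. The median log2 fold change was -1.08 over the plastid loci and -0.02 over all loci, with quartiles of -1.51 and -0.84 over the plastid loci. The change was below 0 in all 21 pairs of libraries for 47 loci. By experiment, 72, 64 and 72 of the 72 loci were below 0 in experiments 1, 2 and 3, with medians of -1.3, -0.77 and -1.21.

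**Figure D3:**
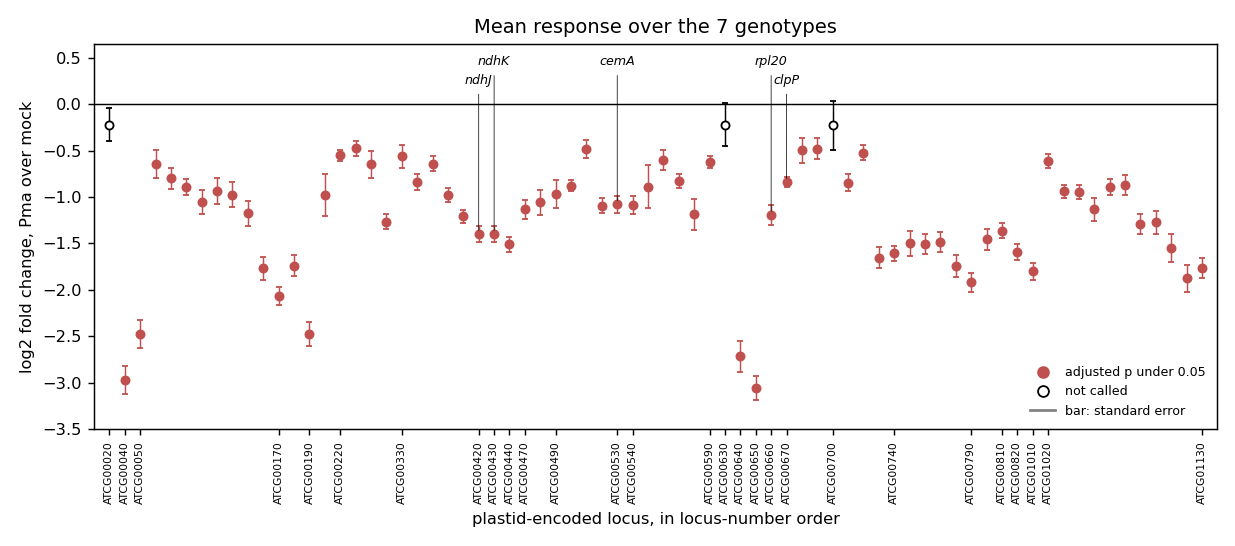
Log2 fold change, Pma over mock, averaged over the 7 genotypes, for the 72 tested plastid-encoded loci in the order of their locus numbers, with the loci named in the text marked on the axis; bars are standard errors of the edgeR fit and open points did not pass. The 69 called loci are all below 0, from -3.06 for ATCG00650 to about -0.48, and the open points are ATCG00020, ATCG00630 and ATCG00700.

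Both annotated NDH subunit genes fell. In wild type, ndhJ had 197, 380 and 231 CPM in Pma leaves, against 788, 773 and 940 CPM in mock leaves. Every Pma library was below every mock library, and the log2 fold change was -1.67 ± 0.23 (SE, adjusted p = 1.12e-07). In the average response ndhJ fell by 1.40 ± 0.08 on the log2 scale (adjusted p = 1.34e-16), and it was lower in 21 of 21 pairs. Its neighbour ndhK had 181, 250 and 187 CPM in wild type Pma leaves and 575, 607 and 807 CPM in wild type mock leaves. Its fall in the average response was 1.40 ± 0.09 (adjusted p = 3.81e-16), again in 21 of 21 pairs.

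The ribosomal protein gene rpl20 also fell, with more spread among mock libraries. In wild type it had 129, 163 and 122 CPM after Pma and 347, 355 and 639 CPM in mock leaves. The groups did not overlap, and the mock library of experiment 3 was the highest. Its average response was -1.19 ± 0.10 (adjusted p = 1.77e-12), lower in 21 of 21 pairs.

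The smallest falls among the annotated genes were those of cemA and clpP. The envelope protein gene cemA had 86.5, 105 and 62.8 CPM in wild type Pma leaves and 212, 143 and 231 CPM in wild type mock leaves, with no overlap. Its average response was -1.08 ± 0.09 (adjusted p = 5.59e-13). The protease gene clpP had 170, 191 and 156 CPM in wild type Pma leaves and 399, 345 and 372 CPM in wild type mock leaves. Its average response was -0.84 ± 0.06 (adjusted p = 2.03e-15), lower in 21 of 21 pairs.

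**Figure D4:**
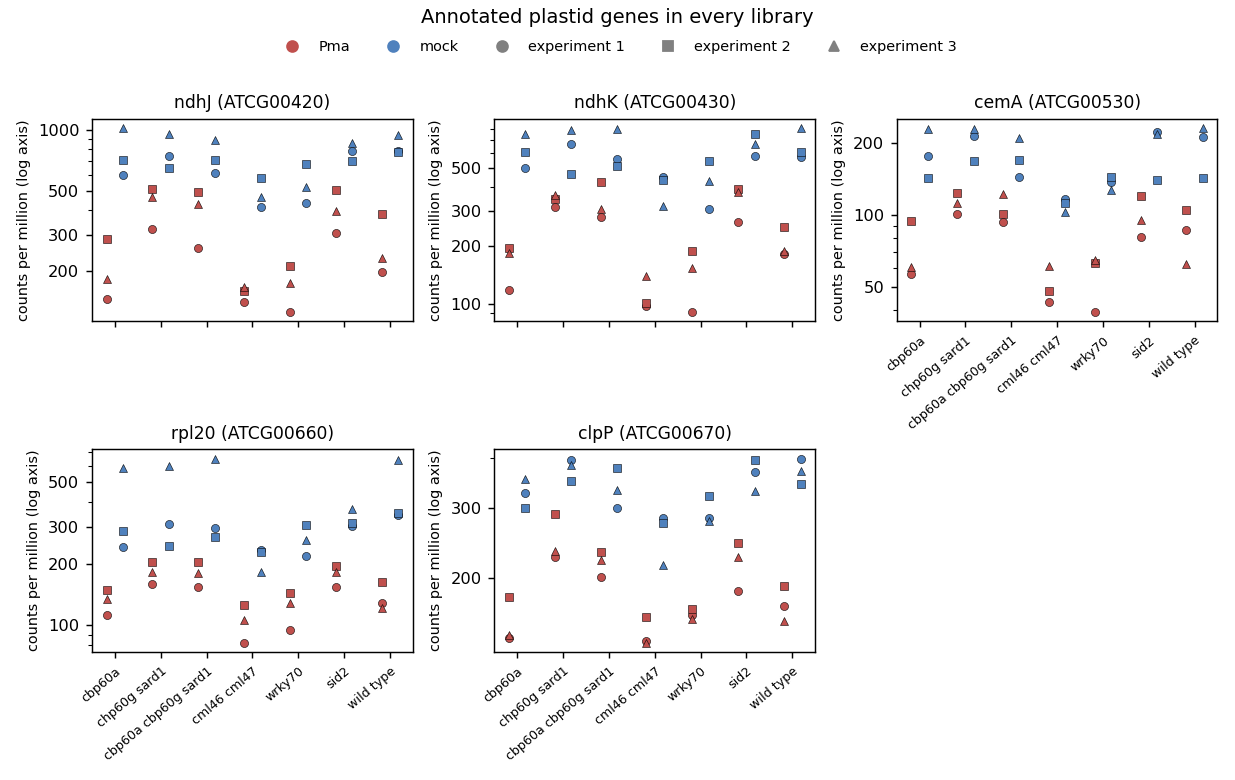
CPM, on a log axis, of 5 plastid genes with a RefSeq symbol in all 42 libraries, with Pma left of mock in each genotype and points marked by experiment. In wild type each gene is lower in all 3 Pma libraries than in the 3 mock libraries, for example ndhJ at 197 to 380 CPM and at 773 to 940 CPM.

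Among the loci without a name, ATCG00650 fell most. In wild type it had 49.4, 45.8 and 33.7 CPM after Pma and 451, 601 and 632 CPM in mock leaves. Over all genotypes its levels ran from 19.5 to 77.1 CPM in Pma leaves (median 49.4) and from 232 to 632 CPM in mock leaves (median 413), without overlap, and its average response was -3.06 ± 0.13 (adjusted p = 7.55e-21). The next smallest adjusted p-values belonged to ATCG00170 (-2.07 ± 0.10, adjusted p = 8.13e-20), ATCG00740 (-1.61 ± 0.08, adjusted p = 2.50e-19) and ATCG01010 (-1.80 ± 0.09, adjusted p = 7.07e-19). Further loci below -2 were ATCG00040 at -2.97 and ATCG00190 at -2.47, and, named after their values were seen, ATCG00640 at -2.72 and ATCG00050 at -2.48. In all, 39 loci were below -1 and 6 below -2. Of the 8 most counted loci, 7 fell: ATCG00440 by 1.51, ATCG00470 by 1.13, ATCG00540 by 1.08, ATCG00490 by 0.97, ATCG01020 by 0.61, ATCG00330 by 0.56 and ATCG00220 by 0.55 on the log2 scale.

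At the other end, ATCG00020, ATCG00630 and ATCG00700 did not pass in the average response, at -0.22 ± 0.18 (adjusted p = 0.252), -0.22 ± 0.23 (adjusted p = 0.370) and -0.23 ± 0.26 (adjusted p = 0.427), and none of them passed in any single genotype. ATCG00020, the second most counted locus, had 3243, 8661 and 2577 CPM in wild type Pma leaves and 5334, 4349 and 6605 CPM in wild type mock leaves. The Pma library of experiment 2 was the highest and those of the other experiments were the lowest of the 6. Over the genotypes its log2 change was -0.58 in experiment 1, 0.84 in experiment 2 and -0.88 in experiment 3. ATCG00630 (-0.92, 1.41 and -1.16) and ATCG00700 (-1.3, 1.3 and -1.02) were likewise above 0 in experiment 2 alone, whereas ndhJ (-1.60, -1.03 and -1.54) and clpP (-0.95, -0.72 and -0.84) were below 0 in all experiments. Both loci were counted far less than ATCG00020. In wild type ATCG00630 averaged 23.1 CPM in Pma leaves and 26.8 CPM in mock leaves, and ATCG00700 3.91 and 3.125 CPM. The changes of ATCG00700 thus rest on few counts. Without experiment 2, all 72 loci were called lower.

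Falls were also called in each genotype taken alone. Of the 72 loci 67 fell in cbp60a (33.5% of all loci were lower), 62 in wrky70 (31.4%), 57 in cml46 cml47 (30.2%), 53 in sid2 (31.5%), 49 in the triple mutant (30.5%), 48 in chp60g sard1 (29.6%) and 64 in wild type (34.0%). These comparisons share no library, but they share the estimate of spread of the fit. In all 7 of them 43 plastid loci, 59.7% of the 72, were called lower, as were 20.6% of all loci. Median log2 fold changes of the 72 loci were -1.46 (cbp60a), -1.34 (wrky70), -1.13 (cml46 cml47), -0.90 (sid2), -0.82 (chp60g sard1), -0.78 (triple mutant) and -1.35 (wild type). Without experiment 1 the count was 29 in chp60g sard1, 32 in the triple mutant and 32 in sid2, and without experiment 3 it was 31 in the triple mutant. Fitted on the 6 libraries of the comparison alone, it was 30 in chp60g sard1 and 22 in the triple mutant. Counts from these other fits stand without the share of all loci called in the same fit.

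ATCG00650 had 1 of the 4 lowest adjusted p-values of a plastid locus in each of the 7 genotypes. Its log2 fold change was -3.66 in cbp60a, -2.92 in sid2, -2.90 in wrky70, -2.71 in cml46 cml47, -2.83 in chp60g sard1, -2.73 in the triple mutant and -3.70 in wild type, with standard errors of 0.34 to 0.35. ATCG00170 was among these 4 in cbp60a (-2.53), chp60g sard1 (-1.87), the triple mutant (-1.61), sid2 (-1.75) and wild type (-2.75), and ATCG00740 in cbp60a (-2.03), cml46 cml47 (-1.64), wrky70 (-1.97), sid2 (-1.41) and wild type (-2.06). The remaining places went to ATCG00040 in chp60g sard1 (-2.67), the triple mutant (-2.60) and sid2 (-2.74), to ATCG01010 in cbp60a (-2.27), the triple mutant (-1.39) and cml46 cml47 (-1.92), to ATCG00440 in cml46 cml47 (-1.83) and wrky70 (-1.99), to ATCG00190 in chp60g sard1 (-2.11) and wild type (-3.58), and to ATCG00790 in wrky70 (-2.26). In all, 8 loci filled these 28 places. The ranks are by adjusted p from the same fit, whose estimate of spread for a locus serves every genotype. Recurrence of a locus is therefore not independent between genotypes. ATCG00330, the third most counted locus, passed in cbp60a (-1.09 ± 0.34, adjusted p = 0.00575) and wild type (-0.79 ± 0.33, adjusted p = 0.0369), and no test of a difference in its response between mutant and wild type passed.

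The make-up of the plastid counts changed as well. It was read from a fit of the plastid loci alone with their summed counts as the library size, given here as a description without a test. On that scale 26 of the 72 loci were above 0 and 46 below, from 0.74 for ATCG00630 to -2.12 for ATCG00650. ATCG00020 was at 0.71 ± 0.12 (SE) and took 15.2 ± 5.84% of the plastid counts in Pma leaves, against 8.72 ± 1.59% in mock leaves (SD, 21 libraries each). Without experiment 2 these shares of ATCG00020 were 11.8 ± 3.58% in Pma leaves and 8.75 ± 1.18% in mock leaves (SD, 14 libraries each). ATCG00330 was at 0.38 and took 11.4 ± 1.15% in Pma leaves, against 8.87 ± 1.60% in mock leaves. ATCG00040 was at -2.03 ± 0.12 and took 0.627 ± 0.223% in Pma leaves, against 2.55 ± 0.567% in mock leaves (0.642 ± 0.268% and 2.62 ± 0.653% without experiment 2). Of the annotated genes, clpP was at 0.09, cemA at -0.15, rpl20 at -0.25, and ndhK and ndhJ at -0.47.

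Responses of loci next to each other in locus number were weakly related. The correlation of a locus's average response with that of the next tested locus was r = 0.39 (Spearman's rho 0.49, 71 neighbouring pairs), as a description across loci that share all libraries. ATCG00640 and ATCG00650 were both below -2.7, ATCG00040 and ATCG00050 both below -2.4, and ndhJ, ndhK and ATCG00440 lay between -1.40 and -1.51. Other neighbours were far apart, such as ATCG00020 at -0.22 beside ATCG00040 at -2.97, and ATCG00650 at -3.06 beside rpl20 at -1.19. From log2 CPM, r was 0.34 to 0.41 with any 1 experiment left out. Level and response gave a rho of 0.08 over the 72 loci.

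Nuclear genes for plastid proteins fell too, with lower medians than the plastid loci (-1.08). In the average response all 45 nuclear photosynthesis genes fell (median -2.90). Their lowest adjusted p-values belonged to ATPD, a plastid ATP synthase subunit (-3.55 ± 0.16, adjusted p = 2.26e-20), PSAN, a photosystem I subunit (-3.96 ± 0.18, adjusted p = 4.98e-20), and PSBO2, a protein of the oxygen-evolving complex (-2.79 ± 0.13, adjusted p = 6.69e-20). PSAN had 76.3 to 1637 CPM in Pma leaves (median 275) and 3025 to 7136 CPM in mock leaves (median 5403). All 17 genes of plastid RNA processing and decay fell (median -3.0), among them CSP41A (-3.73 ± 0.14, adjusted p = 7.69e-22) and CSP41B (-4.46 ± 0.21, adjusted p = 1.05e-19), which encode endoribonuclease-like plastid RNA-binding proteins, and HCF173 (-3.07 ± 0.12, adjusted p = 8.01e-22), needed for translation of a photosystem II messenger. Of 21 genes of the plastid transcription machinery 20 fell (median -2.42), including the sigma factor genes SIG1 (-3.06 ± 0.12), SIG2 (-2.45 ± 0.10) and SIG4 (-4.34 ± 0.20, adjusted p = 1.01e-20), and RPOTMP, a phage-type polymerase gene, did not pass (0.38 ± 0.23, adjusted p = 0.125). Of 10 tested mitochondrion-encoded loci 1 rose and 1 fell (median 0.00). Markers of other leaf cell types moved as well: the 5 epidermis genes fell (summed level 20.1 to 507 CPM in Pma leaves, 1050 to 2460 CPM in mock leaves), the 3 tested of 4 phloem genes fell (301 to 597 and 477 to 720 CPM), and of the 3 tested of 4 guard cell genes 1 rose and 1 fell (58.1 to 156 and 32.7 to 81.8 CPM). No summed list was at 0 in a library, but CER1 of the epidermis and MYB60 of the guard cells were at 0 in at least 1 Pma library. So were SIG4, PAP3, PAP4, PAP5, PAP6, PAP7, PAP9, FLN2 and RPOTP of the transcription machinery. PNP, RNE, RNJ, RNR1 and HCF145 of the RNA processing and decay genes also reached 0 in at least 1 Pma library. SIG4 had a median of 2.1 CPM in Pma leaves and 43.15 CPM in mock leaves, so its fall rests on few counts after Pma. The part of cell type composition in the plastid falls was not tested.

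Without infection, cml46 cml47 had lower counts on plastid loci than wild type. Of the 72 loci 42 were lower in mock leaves of cml46 cml47, while 1.41% of all loci were lower and 3.83% higher in that comparison, and 66 loci had no overlap between the groups (11.3% of all loci). The median log2 fold change was -0.97 over plastid loci and 0.01 over all loci. The share of the library was 3.59, 4.02 and 3.54% in cml46 cml47 and 5.76, 5.18 and 7.06% in wild type. The mean log2 ratio was -0.68 ± 0.32 (SD, n = 3), from -0.682, -0.365 and -0.997 in experiments 1, 2 and 3. The wild type library of experiment 3 was among the mock libraries that stood apart, and the cml46 cml47 library was not. The part of this library difference in the lower counts was not tested. Leaving out an experiment reduced the calls to 19 (experiment 1), 24 (experiment 2) and 4 (experiment 3, median -0.71). Without scaling factors 23 loci were lower, on a scale where the median of all loci was 0.24, and without the experiment as a block 17. Counts under these other settings stand without the share of all loci called in the same fit. They show how the calls depend on the setting, and not whether plastid loci exceed all loci there.

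The lowest adjusted p-values in that comparison belonged to ATCG00810, ATCG01130, ATCG00820 and ATCG00170. ATCG00810 had 214, 253 and 225 CPM in cml46 cml47 and 612, 502 and 796 CPM in wild type (-1.43 ± 0.21, adjusted p = 0.000129). ATCG01130 had 834, 869 and 876 CPM in cml46 cml47 and 2953, 2256 and 3563 CPM in wild type (-1.74 ± 0.29, adjusted p = 0.000358). ATCG00820 (-1.36 ± 0.23) and ATCG00170 (-1.42 ± 0.25) gave adjusted p-values of 0.000373 and 0.000575. In the first 2 of these loci the cml46 cml47 libraries lay close together and far below the lowest wild type library. Of the annotated genes, 4 passed: rpl20 (-0.99 ± 0.27, adjusted p = 0.0280), cemA (-0.82 ± 0.23, adjusted p = 0.0359), ndhJ (-0.80 ± 0.22, adjusted p = 0.0281) and clpP (-0.54 ± 0.15, adjusted p = 0.0281). ndhK was at -0.69 ± 0.23 and did not pass (adjusted p = 0.0728). In the same comparison the 45 nuclear photosynthesis genes lay between -0.90 and -0.25 (median -0.54), 1 of 10 mitochondrion-encoded loci was lower (median -0.57) and 1 of 21 transcription machinery genes was lower (median -0.49). The summed epidermis markers were at 1050 to 1230 CPM in cml46 cml47 and 1680 to 1790 CPM in wild type. In that order, the guard cell markers were at 32.7 to 48.9 and 51.7 to 70.9 CPM, and the phloem markers at 477 to 541 and 531 to 613 CPM. The part of cell type composition in the difference was not tested.

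In mock leaves of wrky70 the plastid loci were at a median of -0.69, and 55 had no overlap with wild type, all lower (6.35% of all loci). After adjustment edgeR called 0 of them (0.0594% of all loci in either direction), 56 had an unadjusted p under 0.05 (8.38% of all loci), and DESeq2 called 10 (0.494%). The share of the library was 3.96, 4.49 and 4.1% in wrky70, against 5.76, 5.18 and 7.06% in wild type. The mean log2 ratio was -0.51 ± 0.29 (SD, n = 3), and it ran from -0.66 to -0.37 with an experiment left out. In experiment 3 the wild type library was among the mock libraries that stood apart, and the wrky70 library was not. In cbp60a, chp60g sard1, the triple mutant and sid2 mock leaves 0 loci were called by edgeR (0.185, 0.462, 0.0 and 0.0132% of all loci in either direction) or by DESeq2 (2.02, 0.877, 0.226 and 0.0132%), and 2, 0, 4 and 4 loci had an unadjusted p under 0.05 (8.54, 7.7, 7.08 and 4.9%). Their medians were -0.16, -0.17, -0.16 and -0.17.

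The loci that were lower in cml46 cml47 mock leaves tended to be those that fell after Pma elsewhere. Across 72 loci, the log2 difference of cml46 cml47 from wild type in mock leaves correlated with the Pma response of the 5 other genotypes, from which it shares no library, at r = 0.54 (rho 0.63). With any 1 experiment left out r was 0.47 to 0.56. Loci are not independent replicates, and both measures come from the same 3 experiments.

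After Pma, the loci that passed against wild type were all higher in the mutant. In chp60g sard1, 12 of the 72 loci were higher than in wild type (8.88% of all loci were higher), in the triple mutant 5 (7.01%) and in sid2 3 (8.89%), so that in the triple mutant and sid2 the share of plastid loci called was no larger than that of all loci. The medians of the 72 loci were 0.42, 0.45 and 0.37, beside 0.06, 0.06 and 0.10 over all loci. The calls depended on single experiments and on the scaling: leaving out an experiment left 1 to 4 in chp60g sard1, 0 to 1 in the triple mutant and 0 to 1 in sid2, without scaling factors the counts were 1, 0 and 0, and without the experiment as a block 2, 0 and 1. In Pma leaves of cbp60a, cml46 cml47 and wrky70 edgeR called 0 loci (0.0, 0.125 and 3.31% of all loci in either direction), 1, 33 and 29 had an unadjusted p under 0.05 (2.3, 11.2 and 18% of all loci), and DESeq2 called 0, 2 and 2 (0.0264, 0.3 and 4.29%). Their medians were -0.27, -0.59 and -0.52.

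**Figure D5:**
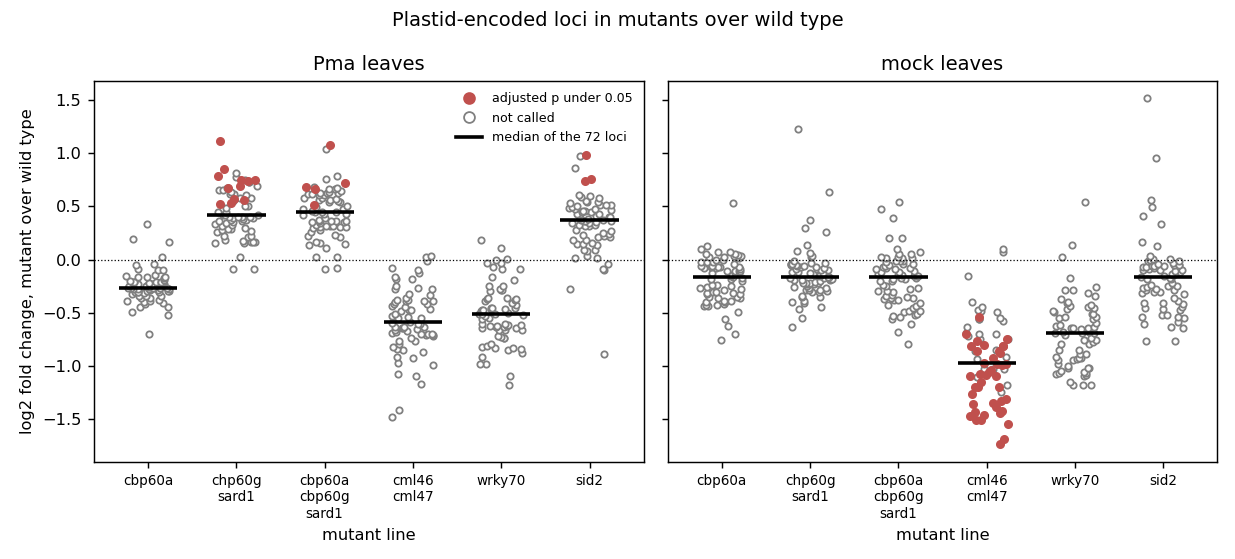
Log2 fold change, mutant over wild type, of the 72 tested plastid-encoded loci in Pma leaves and in mock leaves; filled points passed at an adjusted p under 0.05 and bars are medians. Filled points are confined to cml46 cml47 in mock leaves (42, all below 0) and to chp60g sard1 (12), the triple mutant (5) and sid2 (3) in Pma leaves, all above 0.

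ndhK was called higher in all 3 of these mutants. It had 315, 347 and 364 CPM in chp60g sard1 (0.74 ± 0.23, adjusted p = 0.0301), 282, 427 and 309 CPM in the triple mutant (0.72 ± 0.23, adjusted p = 0.0424), 266, 391 and 380 CPM in sid2 (0.74 ± 0.23, adjusted p = 0.0284) and 181, 250 and 187 CPM in wild type Pma leaves. No wild type library reached the lowest library of a mutant. The 3 comparisons share the wild type libraries. ndhJ passed in chp60g sard1 (0.69 ± 0.22, adjusted p = 0.0345) but was at 0.54 (adjusted p = 0.126) in the triple mutant and 0.59 (adjusted p = 0.0702) in sid2. clpP had 226, 290 and 234 CPM in chp60g sard1 and 170, 191 and 156 CPM in wild type (0.53 ± 0.15, adjusted p = 0.0141). Of the unnamed loci, ATCG00190 was higher in chp60g sard1 (1.12 ± 0.34, adjusted p = 0.0261), the triple mutant (1.08 ± 0.34, adjusted p = 0.0387) and sid2 (0.98 ± 0.34, adjusted p = 0.0493). ATCG00740 was higher in chp60g sard1 (0.78 ± 0.20, adjusted p = 0.00788) and the triple mutant (0.67 ± 0.20, adjusted p = 0.0283), ATCG00440 in chp60g sard1 (0.74 ± 0.21, adjusted p = 0.0138) and sid2 (0.76 ± 0.21, adjusted p = 0.0119), and ATCG00590 in chp60g sard1 (0.57 ± 0.17, adjusted p = 0.0237) and the triple mutant (0.68 ± 0.17, adjusted p = 0.00908). In Pma leaves of the same mutants, 43, 43 and 34 of the 45 nuclear photosynthesis genes were higher than in wild type (medians 1.53, 1.52 and 1.26).

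The test of the difference in response, mutant against wild type, called 4 loci in chp60g sard1 (3.62% of all loci were higher) and 4 in the triple mutant (2.29%), all with a smaller fall than in wild type. The differences had medians over the 72 loci of 0.58 and 0.59. ATCG01130 had 510, 848 and 1184 CPM in Pma leaves of chp60g sard1 and 1433, 1391 and 3716 CPM in its mock leaves, 553, 630 and 1269 CPM in Pma leaves of the triple mutant and 1017, 1278 and 3327 CPM in its mock leaves, against 342, 483 and 527 CPM in Pma leaves of wild type and 2953, 2256 and 3563 CPM in its mock leaves. Its fall was 1.32 in chp60g sard1, 1.14 in the triple mutant and 2.72 in wild type on the log2 scale. The mock libraries of experiment 3 were the highest of their group in all 3 genotypes. These calls rest on all 3 experiments: without any of them 0 to 1 locus passed in chp60g sard1 and 0 in the triple mutant. The test called 0 loci in cbp60a, cml46 cml47, wrky70 and sid2 by edgeR (0.0, 0.574, 0.112 and 1.73% of all loci in either direction), where 0, 10, 2 and 27 loci had an unadjusted p under 0.05 (5.71, 16.6, 12.4 and 17% of all loci) and DESeq2 called 0, 1, 0 and 2 (0.0, 4.56, 1.05 and 3.61%).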

How the data were processed

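Smart-3SEQ libraries of 42 samples (7 genotypes, 2 treatments, 3 experiments) were analysed from the table of counts per locus that the authors deposited. Per the labels' protocols, the first 8 bases of a read (a 5-base molecular identifier and GGG) were removed, and per the submitters' processing notes bcl2fastq 2.17.1.14, STAR 2.4.2a and TAIR10 were used. No source used here gives the counting tool, its strand setting, the annotation release or any use of the identifiers, so overlapping loci and copies in the plastid inverted repeat are uncertain. All 42 columns were matched to samples by name and 0 were left unused. Total counts were 919335 to 2691069 a library, and the precision of low loci is limited by this depth.

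One edgeR 4.0.16 quasi-likelihood fit (R 4.3.3, limma 3.58.1, TMM, filterByExpr with a minimum count of 10 and a minimum total of 15) held all 14 groups with the experiment as a block, 16 coefficients and 26 residual degrees of freedom. p-values were adjusted by Benjamini-Hochberg over 15161 loci and called under 0.05; every adjusted p in the text is from this fit. Standard errors were derived from the F statistic and the fold change. All tests are two-sided. The labels give the numbers 1 to 3 as independent experiments that hold 1 sample of each group; the mean correlation of deviations from the group means was 0.372, 0.351 and 0.133 over the 91 pairs of libraries of each experiment. Replicates of 1 group differed beyond sampling noise in each of 42 pairs. The share of a library on plastid loci, its ratios, and correlations across loci are descriptions with no test. DESeq2 1.42.0 was the other tool; it left 34 adjusted p-values of plastid loci undefined, which were not counted. The scripts were tested on simulated counts. Python 3.11.15, pandas 2.3.3, NumPy 2.4.6 and matplotlib 3.10.9 made the tables and figures.

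Members, gene lists and tests were chosen with earlier results of these data known. Named loci are the 8 with the highest mean CPM, in each comparison up to 4 higher and 4 lower with the lowest adjusted p, the 3 lowest adjusted p-values of each nuclear list, and genes with a RefSeq symbol. The rule also held psbA, rbcL and other genes that could not be paired with a locus here, and these are not reported, nor is 1 further locus. Sequences are from RefSeq (TAIR10.1). Alternatives tried were another scaling, no filter, no block, scaling from nuclear loci, only the compared libraries, DESeq2, each experiment left out, other denominators of the share and, chosen after seeing the data, no scaling factors, TMM-scaled shares, and the make-up and correlations with an experiment left out.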

Additional observations from a re-analysis of the deposited data

Results flagged for a closer look

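For 5 plastid loci the response to Pma differed between a mutant and wild type by a test of the difference itself (edgeR quasi-likelihood test, adjusted over all loci), each time with a smaller fall in the mutant. In chp60g sard1 the difference in log2 fold change was 1.4 ± 0.397 for ATCG01130 (SE, adjusted p = 0.0302), 0.978 ± 0.282 for ATCG00740 (adjusted p = 0.0329), 0.974 ± 0.298 for ATCG00810 (adjusted p = 0.0435) and 1.02 ± 0.316 for ATCG00820 (adjusted p = 0.0468). In the triple mutant it was 1.58 ± 0.398 for ATCG01130 (adjusted p = 0.0239), 1.14 ± 0.317 for ATCG00820 (adjusted p = 0.0373), 0.997 ± 0.282 for ATCG00740 (adjusted p = 0.0402) and 1.59 ± 0.468 for ATCG00190 (adjusted p = 0.0475). The loci called were 5.56% of the 72 in each mutant, beside 3.62% of all loci called higher in chp60g sard1 and 2.29% in the triple mutant. With an experiment left out, 0 to 1 plastid loci were called in chp60g sard1 and 0 in the triple mutant. The calls did not hold without scaling factors or without the experiment as a block. Both sets of differences share the wild type libraries. ATCG00740, for instance, had 632, 777 and 939 CPM in chp60g sard1 after Pma and 1552, 1414 and 1971 CPM in its mock leaves, against 363, 511 and 482 CPM in wild type after Pma and 1798, 1795 and 2018 CPM in its mock leaves. Loci ATCG00810 and ATCG00820 also had among the lowest adjusted p-values between cml46 cml47 and wild type in mock leaves, as did ATCG01130; that comparison uses the same wild type mock libraries.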

How the results depend on the processing

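In the average response to Pma, where 69 plastid loci fell, 66 to 72 were called when an experiment was left out, 67 without scaling factors and 69 by DESeq2. Of the named values under alternatives, 1518 kept their call, 16 gained and 223 lost it, and 5 that passed on at least 1 of the scales had the opposite sign relative to the plastid sum: ATCG00020 0.71, ATCG00220 0.37, ATCG00330 0.38, ATCG01020 0.32 and ATCG00670 (clpP) 0.0879 ± 0.0544 (SE). A locus that falls less than the plastid sum is above 0 on that scale by construction. These signs therefore do not contradict a fall on the library scale. Among loci with no call, ATCG00020 ran from -0.709 (without experiment 2, called) to 0.111 over the other alternatives, ATCG00630 from -1.02 to 0.263 and ATCG00700 from -1.13 to 0.306.

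Fits of the compared libraries alone gave 30 falls in chp60g sard1 and 22 in the triple mutant; against wild type they called 65 loci in cml46 cml47 and 12 in wrky70 (mock), and, in Pma leaves, 23 (chp60g sard1), 11 (triple mutant), 1 (cml46 cml47), 6 (wrky70) and 5 (sid2). DESeq2 called 10 in wrky70 (mock), in Pma leaves 10 (triple mutant), 2 (cml46 cml47), 2 (wrky70) and 9 (sid2), and differences in response for 10 (chp60g sard1), 12 (triple mutant), 1 (cml46 cml47) and 2 loci (sid2). Without scaling factors, 23 loci were called in cml46 cml47 (mock), and 1 in chp60g sard1, 0 in the triple mutant and 0 in sid2 (Pma), with 0 differences in response in chp60g sard1 and 0 in the triple mutant. Without the replicate block, which the pairing of samples by experiment calls for, these counts were 17, 2, 0, 1, 0 and 0; the block changed no other count by over 1.5 times. With no filter on low counts, 1 locus was called in wrky70 (mock), 5 in chp60g sard1 and 2 in the triple mutant (Pma), with 1 difference in response in chp60g sard1. Scaling from nuclear loci alone gave 2 in the triple mutant and 1 in wrky70 (Pma), and 2 differences in chp60g sard1. Most of these counts stand without the share of all loci called under the same setting. They show how the calls depend on the processing, and not whether plastid loci exceed all loci in a given setting. The cause of these shifts was not tested.

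With an experiment left out, falls numbered 29 to 55 in chp60g sard1, 31 to 51 in the triple mutant and 32 to 54 in sid2, calls against wild type 4 to 24 in cml46 cml47 (mock), and, in Pma leaves, 1 to 4 (chp60g sard1), 0 to 1 (triple mutant), 0 to 1 (cml46 cml47) and 0 to 1 (sid2), and differences in response 0 to 1 in chp60g sard1 and 0 to 0 in the triple mutant. In the other genotypes falls then numbered 50 to 68 (cbp60a), 43 to 53 (cml46 cml47), 52 to 62 (wrky70) and 51 to 67 (wild type). The mean log2 ratio of the share, Pma over mock, then ran from -0.917 to -0.541. Shares from TMM-scaled counts moved by more than 1 SD in 6 ratios, which became -0.783 (cml46 cml47) and -1.06 (wrky70) for Pma over mock, -0.108 for the triple mutant over wild type in mock leaves, and 0.425 (chp60g sard1), 0.386 (triple mutant) and 0.408 (sid2) over wild type in Pma leaves. Shares of protein-coding loci alone were not run, because no source used here pairs most loci with a gene. With 3 libraries a group, small differences between genotypes can be missed. For loci near the filter, at about 10 counts, they are not detectable at this depth.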
